A study of Capra hircus with 6 samples.

Results

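The genes described here are 9 transcription factors that mark or build the somatic cells of the gonad: WT1, GATA4, GATA6, SOX9, NR2F1, NR2F2, TCF21, LHX9 and EMX2. They were taken by gene symbol from a table in which 16599 genes carry values. All 9 carry values in every library, and all 9 were among the 12665 genes with enough counts to be tested. The cells were mGSCs-I-SB, a goat (Capra hircus) line labelled as spermatogonial stem cells, from which sperm production is renewed. RNA of 3 lines was sequenced with 2 libraries per line: shCON, with a control short hairpin RNA and a genotype given as WT, shUCHL1, in which UCHL1 is knocked down, and shHSPA8, in which HSPA8 is knocked down. UCHL1 is a deubiquitinating enzyme that marks early spermatogonia, and HSPA8 is a constitutive chaperone of the HSP70 family. All 3 lines derive from the same cell line, carry a hairpin and grew in medium with 10% fetal bovine serum, while the number of hairpins and the origin of replicate libraries (separate cultures or not) are not stated in the labels. The spread behind every p-value is therefore that between these libraries and may be technical.

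The embryonic gonad forms as a thickening of the coelomic epithelium called the genital ridge. EMX2, LHX9, WT1 and GATA4 act in that ridge, and mice that lack any of them do not form normal gonads. SOX9 then drives supporting cells toward the Sertoli fate, the nurse cells of the seminiferous tubule. GATA4 and GATA6 are zinc finger factors of Sertoli and Leydig cells. The orphan nuclear receptors NR2F1 and NR2F2 (COUP-TFI and COUP-TFII) and the bHLH factor TCF21 are known from interstitial and mesenchymal cells, among them precursors of the steroid-producing Leydig cells.

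Total counts ran from 15710532 to 16417274 per library. UCHL1 averaged 428 CPM (read counts relative to library size, after TMM scaling between libraries) in shCON, 96.0 in shUCHL1 and 360 in shHSPA8, and HSPA8 averaged 4064, 5298 and 2579 CPM, so each targeted transcript was lowest in its own knockdown line. The spread between the libraries of a line was uneven: the chi-square of replicate counts per gene, near 1 for sampling noise alone, was 21.7 in shCON, 2.32 in shUCHL1 and 11.6 in shHSPA8, so no library was a copy of another. Genes with a Benjamini-Hochberg adjusted p under 0.05 over all genes tested, in edgeR's quasi-likelihood test, are said to have risen or fallen. Of the 1987 genes called in shUCHL1 against shCON, 54.5% were higher in shUCHL1, against 68.1% when libraries were scaled by size alone. In shUCHL1 against shHSPA8 42.6% of calls were higher, and 64.4% with scaling by size alone, which moved the median of all genes by 0.10 on the log2 scale.

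Germ cell genes were checked first, because the label names a germ cell. Of 33 germ cell markers, 20 carried values, 9 had blank entries (DAZL, ZBTB16, NANOS2, NANOS3, SALL4, LIN28A, SOHLH1, STRA8 and UTF1, not analysed here) and 4 symbols were not found. Of the 20, 14 stayed under 1 FPKM (fragments per transcript length and library size, as deposited) in every library. DDX4, the germ cell RNA helicase, lay between 0.14 and 0.67 FPKM, GFRA1, a GDNF co-receptor of spermatogonial stem cells, between 0.02 and 0.12, and the receptor tyrosine kinase KIT between 0 and 0.02. The markers that were abundant, UCHL1 (118 to 534 FPKM), THY1 (37.7 to 98.3), MAEL (31.7 to 49.3) and ITGA6 (11.6 to 21.9), include genes that somatic cells also express. DDX4, GFRA1 and KIT thus lay under the median of 6.56 FPKM over the 9 factors, while UCHL1, THY1, MAEL and ITGA6 lay above it. Of the 11 germ cell markers tested, 3 rose (RET, ID4 and MAEL) and 2 fell (UCHL1 and THY1) in shUCHL1, where 15.7% of all genes were called. UCHL1 is the transcript targeted in that line, so its fall was set by the design. The calls of RET, ID4 and MAEL were lost without shUCHL1 replicate 1, and those of ID4 and MAEL also without shUCHL1 replicate 2. In shHSPA8 1 rose (ID4) and 0 fell, where 14.7% of all genes were called.

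Every one of the 9 gonadal somatic factors was detected, and 8 exceeded 1 FPKM in all 6 libraries. FPKM is a level per transcript length, so it allows an order between genes. NR2F2 had the highest mean over the 6 libraries at 16.8 FPKM, followed by GATA4 (15.5), SOX9 (13.6), EMX2 (10.5), LHX9 (6.56), TCF21 (4.79), NR2F1 (4.67), WT1 (1.89) and GATA6 (1.16). NR2F2 lay at percentile 69.4 of all genes with values and GATA6 at percentile 33.2. In shCON the order began with GATA4 (19.95 ± 2.65, SD, n = 2) and SOX9 (18.8 ± 1.47), whose libraries overlapped, and went on to NR2F2 (16.7 ± 0.0778). Next came LHX9 (10.1 ± 0.912) and EMX2 (9.695 ± 0.191), which overlapped, then NR2F1 (3.95 ± 0.0849) and TCF21 (3.66 ± 1.27), which overlapped as well. WT1 (2.445 ± 0.361) and GATA6 (0.915 ± 0.0636) were lowest and stood apart.

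That order differed between the lines. In shUCHL1 NR2F2 (17.7 ± 0.177 FPKM, SD, n = 2) stood first, above GATA4 (15.8 ± 0.262), SOX9 (14.3 ± 0.134) and EMX2 (12.1 ± 1.37), and none of these neighbours overlapped. TCF21 (5.435 ± 0.912) stood apart below them. LHX9, at 4.325 ± 0.474, shared its range with NR2F1 (4.17 ± 0.283), and WT1 (1.635 ± 0.0636) shared its range with GATA6 (1.63 ± 0.0990). In shHSPA8 NR2F2 was again first (15.9 ± 0.325). GATA4 (10.7 ± 1.06) and EMX2 (9.66 ± 1.53) overlapped behind it, and SOX9 (7.65 ± 1.23) came after them. NR2F1 (5.895 ± 0.912) and TCF21 (5.28 ± 0.410) overlapped, as did TCF21 and LHX9 (5.27 ± 0.566), and WT1 (1.59 ± 0.0283) and GATA6 (0.930 ± 0.113) again came last. The ranks were the same when levels were taken as scaled CPM per kilobase. The lengths for this were computed from the deposited counts and FPKM themselves, so it is no independent check of the order.

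**Figure D1:**
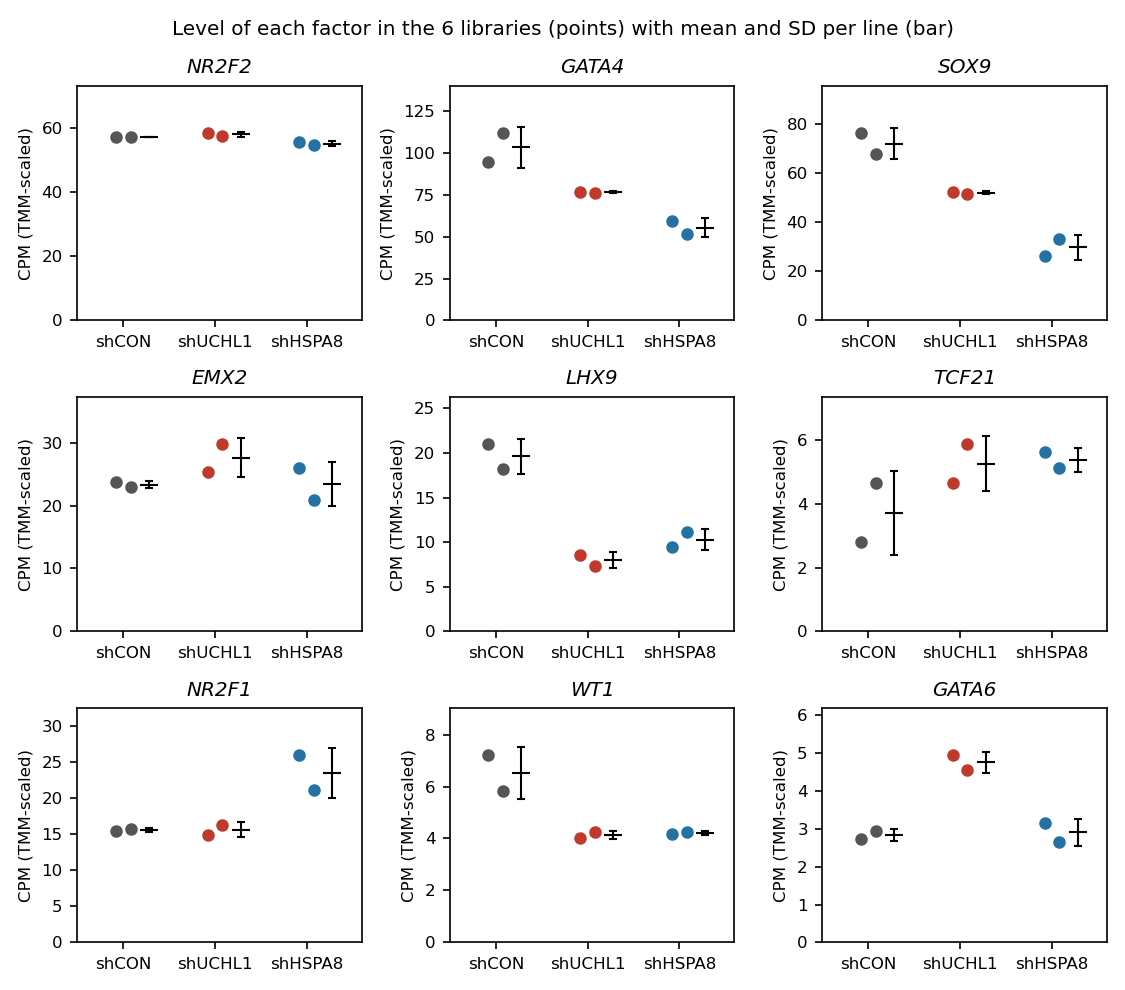
Level of each factor in CPM (vertical axes, starting at 0) in the 2 libraries of each line (points), with mean and SD beside them (bars). GATA4, SOX9, LHX9 and WT1 were highest in both shCON libraries, GATA6 was highest in both shUCHL1 libraries and NR2F1 in both shHSPA8 libraries, while NR2F2 stayed between 54.5 and 58.4 CPM.

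In shUCHL1 against shCON, LHX9, WT1 and GATA4 fell and GATA6 rose, 4 of 9 factors, where 15.7% of all 12665 genes were called (8.54% higher and 7.15% lower). In shHSPA8 against shCON, SOX9, LHX9 and GATA4 fell and NR2F1 rose, again 4 of 9, where 14.7% of all genes were called (8.66% higher and 6.02% lower). Both comparisons use the same shCON libraries. Between the knockdown lines, SOX9, GATA4 and GATA6 were higher and NR2F1 was lower in shUCHL1 than in shHSPA8, 4 of 9 with 14.6% of all genes called (6.2% higher and 8.35% lower). The median log2 fold change over the 9 was 0.00, -0.05 and 0.07 in the 3 comparisons, beside 0.01, -0.00 and 0.02 over all genes tested. The median size of the change, whatever its sign, was 0.47, 0.59 and 0.37, beside 0.20, 0.21 and 0.22 over all genes tested. Only LHX9 in shUCHL1, and GATA4 and SOX9 in shHSPA8, held their calls under all 12 alternatives tried. In shUCHL1 the count of factors called was 1 without either shUCHL1 library and 2 without shCON replicate 1 or either shHSPA8 library, and in shHSPA8 it was 2 without shHSPA8 replicate 1. Between the knockdown lines it was 2 without shHSPA8 replicate 2, and 0 in edgeR without shHSPA8 replicate 1 (6 at an unadjusted p under 0.05) or either shUCHL1 library (4 each), beside 3 with DESeq2 and 4 with limma on all libraries. The libraries of the lines compared did not overlap for 7 factors in shUCHL1 against shCON (56.5% of all genes), 7 in shHSPA8 against shCON (51.0%) and 6 between the knockdown lines (65.7%). These are bulk libraries, so fewer cells that carry a factor and less RNA of it per cell cannot be told apart.

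**Figure D2:**
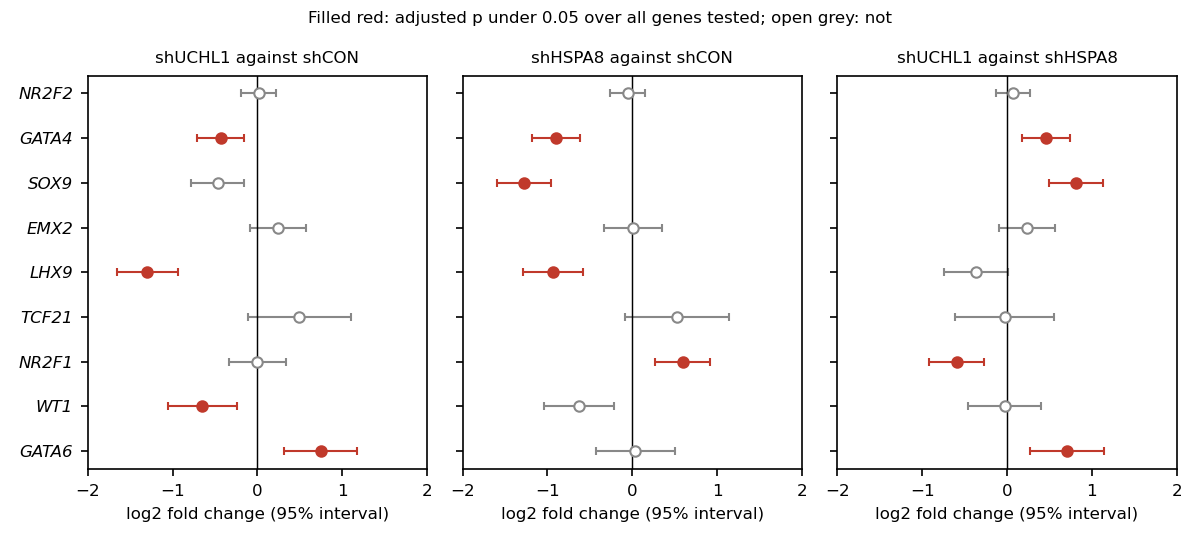
Log2 fold change of each factor with its 95% interval (horizontal axes) in the 3 comparisons, filled red where the adjusted p over all genes tested was under 0.05. LHX9 was lower in both knockdown lines (-1.30 and -0.93), SOX9 was lowest in shHSPA8 (-1.28), and the intervals of NR2F2 lay close to 0.

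LHX9 is a LIM homeobox factor of the genital ridge that, in mice, is needed for the gonad to form and for the steroidogenic factor NR5A1 to be switched on. It stood at 21.0 and 18.2 CPM in shCON, 8.61 and 7.37 in shUCHL1, and 9.48 and 11.1 in shHSPA8. Both knockdown lines lay below both shCON libraries, and no shUCHL1 library reached the lower shHSPA8 library. In shUCHL1 LHX9 fell 2.45-fold (log2 fold change -1.30, SE 0.15, adjusted p = 0.0023), and the adjusted p ran from 4.08e-07 to 0.0316 over the alternatives. In shHSPA8 it fell 1.91-fold (-0.93, SE 0.15, adjusted p = 0.00741), a call that was lost without shHSPA8 replicate 1 (adjusted p = 0.0514; range over the alternatives 6.42e-04 to 0.0514). The difference between the knockdown lines (-0.37, SE 0.16, 95% interval -0.74 to 0.01) did not pass the test (adjusted p = 0.170).

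EMX2, a homeobox factor without which mice form neither kidneys nor gonads, stood at 23.7 and 22.9 CPM in shCON, 25.4 and 29.8 in shUCHL1, and 25.9 and 20.95 in shHSPA8. Both shUCHL1 libraries lay above shCON, and the shHSPA8 libraries lay on either side of it. The log2 fold change was 0.25 in shUCHL1 (95% interval -0.09 to 0.58, adjusted p = 0.305) and 0.01 in shHSPA8 (-0.33 to 0.35, adjusted p = 0.977), and neither passed the test.

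WT1, the zinc finger factor of the genital ridge, Sertoli cells and kidney podocytes, was among the lowest of the 9, with 66 to 114 counts per library. It stood at 7.22 and 5.82 CPM in shCON, 4.03 and 4.26 in shUCHL1, and 4.17 and 4.27 in shHSPA8. The knockdown lines shared a range and lay below both shCON libraries. In shUCHL1 WT1 fell 1.57-fold (log2 fold change -0.65, SE 0.17, adjusted p = 0.0456). The call held without shCON replicate 2 and was lost without each of the other 5 libraries (adjusted p from 0.0698 to 0.271; range over the alternatives 0.0278 to 0.271). In shHSPA8 the difference was of like size (-0.63, SE 0.17) but did not pass the test (adjusted p = 0.0549), with 0.026 to 0.225 over the alternatives. Between the knockdown lines the log2 difference was -0.03 (95% interval -0.45 to 0.40).

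GATA4 is a zinc finger factor that acts from the genital ridge onward and drives Sertoli and Leydig genes. It stood at 94.6 and 112 CPM in shCON, 76.9 and 76.2 in shUCHL1, and 59.4 and 51.6 in shHSPA8. The 3 lines formed steps that did not overlap, highest in shCON and lowest in shHSPA8. In shHSPA8 GATA4 fell 1.86-fold (log2 fold change -0.90, SE 0.12, adjusted p = 0.00326), with 1.54e-07 to 0.0253 over the alternatives. The fall in shUCHL1 was 1.35-fold (-0.43, SE 0.12) with an adjusted p of 0.0494. It held without shCON replicate 1 and was lost without each of the other 5 libraries (adjusted p from 0.0592 to 0.267; range over the alternatives 0.0141 to 0.267). Between the knockdown lines GATA4 was higher in shUCHL1 by 1.38-fold (0.46, SE 0.12, adjusted p = 0.0434). That call was lost without any 1 library of either knockdown line (adjusted p from 0.0952 to 0.265; range over the alternatives 0.0144 to 0.265).

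GATA6, the relative of GATA4 that is coexpressed with it in Sertoli and Leydig cells, was the lowest of the 9, with 41 to 81 counts per library. It stood at 2.72 and 2.94 CPM in shCON, 4.95 and 4.56 in shUCHL1, and 3.16 and 2.65 in shHSPA8. Both shUCHL1 libraries lay above all others, and shCON and shHSPA8 overlapped. GATA6 rose 1.68-fold in shUCHL1 (0.75 on the log2 scale, SE 0.18, adjusted p = 0.0353), but the call was lost when any 1 of the 6 libraries was left out (adjusted p from 0.0534 to 0.257; range over the alternatives 0.0259 to 0.257). Compared with shHSPA8, GATA6 was 1.63-fold higher in shUCHL1 (0.71, SE 0.18, adjusted p = 0.0439), and that call was lost without any 1 library of either knockdown line (adjusted p from 0.124 to 0.291; range over the alternatives 0.0292 to 0.291). Its log2 fold change in shHSPA8 was 0.04 (95% interval -0.42 to 0.50). The FPKM of GATA4 exceeded that of GATA6 by 20.8 and 22.7 times in the shCON libraries, 9.38 and 9.98 times in shUCHL1, and 11.3 and 11.7 times in shHSPA8.

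SOX9, an HMG box factor, sets the Sertoli fate in the fetal testis and is also the main factor of cartilage. It stood at 76.2 and 67.6 CPM in shCON, 52.3 and 51.6 in shUCHL1, and 26.1 and 33.2 in shHSPA8. As with GATA4, the lines formed steps without overlap, with shHSPA8 lowest. SOX9 fell 2.43-fold in shHSPA8 (log2 fold change -1.28, SE 0.14, adjusted p = 0.00113), with 6.67e-13 to 0.00598 over the alternatives. In shUCHL1 the log2 fold change was -0.47 (SE 0.13, 95% interval -0.78 to -0.16), with an adjusted p of 0.0528, just above the threshold. It was called in 6 of 12 alternatives (0.0245 to 0.254), among them without shCON replicate 2 and without either shHSPA8 library (adjusted p from 0.0382 to 0.0419). Between the knockdown lines SOX9 was 1.75-fold higher in shUCHL1 (0.81, SE 0.14, adjusted p = 0.0103). That call was lost without shHSPA8 replicate 1 or either shUCHL1 library (adjusted p from 0.0574 to 0.0888; range over the alternatives 6.72e-05 to 0.0888).

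NR2F2 (COUP-TFII) is a nuclear receptor of interstitial cells and of Leydig cell precursors. It stood at 57.2 CPM in both shCON libraries, 58.4 and 57.4 in shUCHL1, and 55.7 and 54.5 in shHSPA8. The log2 fold change was 0.02 in shUCHL1 (95% interval -0.19 to 0.22) and -0.05 in shHSPA8 (-0.26 to 0.15), and neither passed the test (adjusted p = 0.925 and 0.729). These were the narrowest intervals of the 9 factors, and they leave out a change of 1.5-fold in either direction.

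NR2F1 (COUP-TFI) is the close relative of NR2F2. It stood at 15.45 and 15.8 CPM in shCON, 14.9 and 16.4 in shUCHL1, and 26.0 and 21.1 in shHSPA8. Both shHSPA8 libraries lay above all others, and shCON and shUCHL1 overlapped. NR2F1 rose 1.51-fold in shHSPA8 (log2 fold change 0.59, SE 0.14, adjusted p = 0.0303). The call was lost without shCON replicate 1, shHSPA8 replicate 1 or either shUCHL1 library (adjusted p from 0.0629 to 0.167; range over the alternatives 0.0315 to 0.167). It was 1.51-fold lower in shUCHL1 than in shHSPA8 (-0.59, SE 0.14, adjusted p = 0.0317), a call lost without shHSPA8 replicate 1 or either shUCHL1 library (adjusted p from 0.157 to 0.253; range over the alternatives 0.019 to 0.253). In shUCHL1 against shCON its log2 fold change was 0.00 (95% interval -0.33 to 0.33). The FPKM of NR2F2 was 4.27 and 4.17 times that of NR2F1 in shCON, 4.50 and 4.03 times in shUCHL1, and 2.47 and 2.99 times in shHSPA8.

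NR2F1 was the only factor of the 9 with deposited counts that are not whole, in both shHSPA8 libraries. In the RefSeq annotation of goat assembly ARS1.2, NR2F1 overlaps the gene LOC102179763. That gene is listed at 0 counts in the 4 shCON and shUCHL1 libraries and at 3.23 and 12.3 counts in shHSPA8, beside 412 and 327 for NR2F1. The sums of the pair, 415 and 339, are whole. The strand setting of the counting is unknown here, so reads of the overlapping genes cannot be told apart. How many of the NR2F1 counts come from the overlapping gene was not tested.

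TCF21, a bHLH factor of embryonic gonadal interstitium and of fibroblast precursors, was low, with 44 to 98 counts per library. It stood at 2.79 and 4.65 CPM in shCON, 4.64 and 5.88 in shUCHL1, and 5.63 and 5.11 in shHSPA8. The shCON libraries differed from each other by 1.67-fold, and the lower of them lay below every other library. The log2 fold change was 0.50 in shUCHL1 (SE 0.26, 95% interval -0.12 to 1.11, adjusted p = 0.260) and 0.53 in shHSPA8 (SE 0.26, -0.09 to 1.14, adjusted p = 0.236), and neither passed the test. Without shCON replicate 2 TCF21 was called higher in shHSPA8 (log2 fold change 0.94, adjusted p = 0.040), and without shCON replicate 1 the log2 fold change there was 0.19 (range of the adjusted p over the alternatives 0.040 to 0.609). In shUCHL1 the value was 0.91 without shCON replicate 2 and 0.15 without shCON replicate 1.

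**Figure D3:**
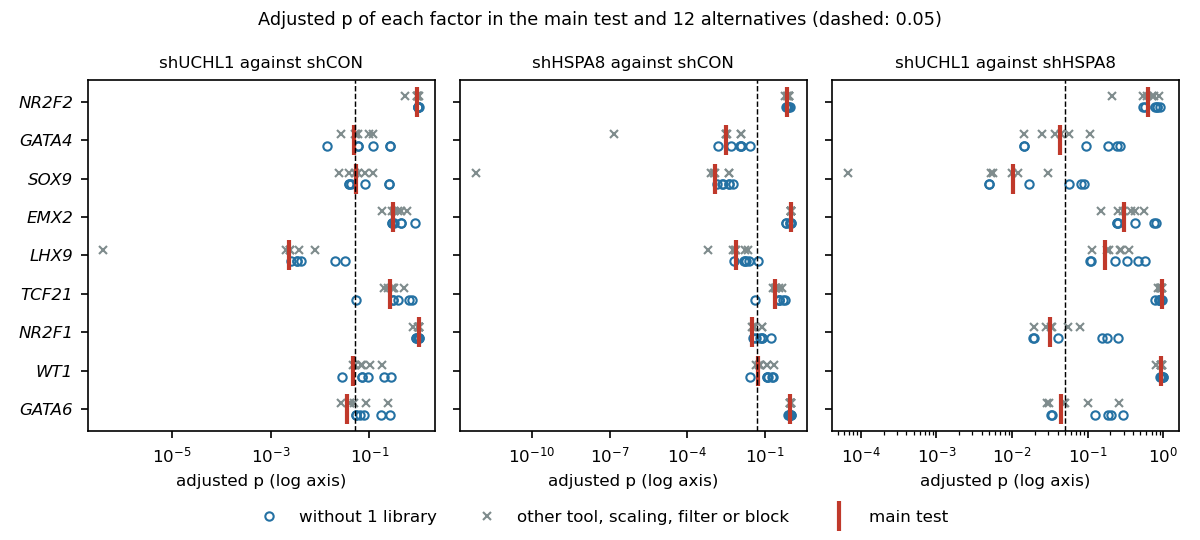
Adjusted p (horizontal log axes, dashed line at 0.05) of each factor in the main test (red bars), when 1 library was left out (blue rings) and under other tools, scaling, filters, samples or a block (grey crosses). LHX9 in shUCHL1 and GATA4 and SOX9 in shHSPA8 stay left of the line throughout, while WT1, GATA6 and NR2F1 spread across it.

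The authors' deposited table gives its own log2 ratios and p-values, without naming the test or any adjustment. In the authors' deposited table the ratio of shHSPA8 to shCON is -1.29 for SOX9 (p = 6.76e-11), -0.91 for GATA4 (p = 8.17e-07), -0.94 for LHX9 (p = 1.51e-04) and 0.58 for NR2F1 (p = 0.0119). For shUCHL1 to shCON the authors' deposited table lists -1.32 for LHX9 (p = 2.53e-08), -0.49 for SOX9 (p = 0.00159), -0.46 for GATA4 (p = 0.00308), -0.68 for WT1 (p = 0.0442) and 0.72 for GATA6 (p = 0.0607). The signs are those of the test used here for all of these factors.

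The partners of these factors in the genital ridge and in sex determination were read from a list of 36 genes, of which 29 carried values and 22 were tested. In shUCHL1 5 rose (NR5A1, NUMB, PTGDR, WNT4 and the AMH receptor gene AMHR2, the last named after its values were seen) and 2 fell (FST and FGFR2), where 15.7% of all genes were called. Of the 5, only WNT4 was called without shCON replicate 1 or either shUCHL1 library, WNT4 and AMHR2 without shCON replicate 2, and WNT4 and PTGDR without either shHSPA8 library. NUMB (18.2 to 25.5 FPKM), an inhibitor of Notch signalling, had a log2 fold change of 0.35 (adjusted p = 0.0403; 0.0643 to 0.358 without any 1 library), and AMHR2 one of 1.17 (adjusted p = 0.0369; 0.0561 to 0.268 in the 5 of 6 leave-outs that lost it). In shHSPA8 3 rose and 3 fell, where 14.7% of all genes were called. The median log2 fold change of the 22 was 0.27 and 0.19, beside 0.01 and -0.00 over all genes tested. NR5A1, the steroidogenic factor downstream of LHX9 and WT1, was present at 4.27 to 7.43 FPKM. It was called higher in shUCHL1 (log2 fold change 0.53, SE 0.14, adjusted p = 0.0425), a call lost without any 1 of the 6 libraries (adjusted p from 0.0596 to 0.355). SRY, the switch gene of the Y chromosome, DMRT1, FOXL2, NR0B1 and the relatives LHX2 and EMX1 had blank entries and were not analysed here. SOX8, the relative that backs up SOX9 in Sertoli cells, lay between 0 and 0.11 FPKM.

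Signals that favour or oppose the Sertoli fate moved in several ways. WNT4, a ligand that opposes SOX9 in the fetal gonad, stood at 18.2 ± 2.12 CPM in shCON (SD, n = 2), 41.9 ± 0.213 in shUCHL1 and 5.64 ± 1.45 in shHSPA8. WNT4 rose 2.30-fold in shUCHL1 (1.20 on the log2 scale, SE 0.16, adjusted p = 0.00365) and fell 3.23-fold in shHSPA8 (-1.69, SE 0.18, adjusted p = 0.00128), and between the knockdown lines it was 7.43-fold higher in shUCHL1 (adjusted p = 3.15e-04). WNT4 was thus highest in shUCHL1 and lowest in shHSPA8, while SOX9 was highest in shCON. The activin antagonist FST fell 4.37-fold in shUCHL1 and 1.92-fold in shHSPA8 (log2 fold change -2.13, SE 0.09, and -0.94, SE 0.09). FGFR2, the receptor through which FGF9 sustains SOX9, fell 2.05-fold in shUCHL1 (-1.03, SE 0.11, adjusted p = 0.00182). Its fall in shHSPA8 (-0.52, adjusted p = 0.0235) was lost without any 1 library of either knockdown line (adjusted p from 0.0540 to 0.146). FGF9 itself lay between 0 and 0.05 FPKM. PTGDR, a receptor of the prostaglandin D2 that promotes SOX9 action, rose 2.55-fold in shHSPA8 (1.35, SE 0.17, adjusted p = 0.00281). In shUCHL1 its rise of 1.72-fold (adjusted p = 0.0276) was lost without either shCON or either shUCHL1 library (adjusted p from 0.0514 to 0.174).

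Known target genes of WT1, GATA4, GATA6 and SOX9 were mostly low. Of 29 listed, 23 carried values, 14 of them stayed under 1 FPKM in every library, and 16 were tested. In shUCHL1 4 rose (AMHR2, INHBB, NR5A1 and WNT4) and 2 fell, where 15.7% of all genes were called, but only WNT4 was called, and none fell, without shUCHL1 replicate 2, and 2 rose and 1 fell without shUCHL1 replicate 1. In shHSPA8 1 rose and 2 fell, where 14.7% of all genes were called, and only the fall of WNT4 was called without shHSPA8 replicate 2 or either shUCHL1 library. The medians were 0.54 and 0.10. AMH, the hormone that SOX9, GATA4 and WT1 switch on in Sertoli cells, lay between 0.23 and 0.59 FPKM and was not called in any comparison. STAR, the cholesterol carrier of steroidogenic cells, lay between 0.35 and 0.59 FPKM and was not called either. The SOX9 targets of cartilage were split: COL2A1 lay between 0 and 0.03 FPKM, while COL11A1 lay between 8.39 and 27.3. COL11A1 was highest in shHSPA8, where SOX9 was lowest: it stood at 114 ± 18.3 CPM in shCON, 58.3 ± 2.79 in shUCHL1 and 178 ± 27.1 in shHSPA8 (SD, n = 2). It fell 1.95-fold in shUCHL1 (adjusted p = 0.00652; 0.0607 without shUCHL1 replicate 2) and was called 1.57-fold higher in shHSPA8 (adjusted p = 0.0273), a call lost without shCON replicate 2, shHSPA8 replicate 2 or either shUCHL1 library (adjusted p from 0.0529 to 0.138). COL11A1 was 3.06-fold lower in shUCHL1 than in shHSPA8 (adjusted p = 0.00136). The activin subunit gene INHBB, a product of Sertoli cells, was under 1 FPKM in every library and was called 5.43-fold higher in shUCHL1 (adjusted p = 0.0048; 0.0523 without shUCHL1 replicate 2).

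Relatives of the 9 factors within their families showed which members the line carried. Of 39 relatives 32 had values and 20 were tested. In shUCHL1 2 rose and 3 fell, where 15.7% of all genes were called. In edgeR without shUCHL1 replicate 1 the count was 0 (5 at an unadjusted p under 0.05) and without replicate 2 it was 1, beside 3 with DESeq2 and 4 with limma on all libraries, and without shCON replicate 1 it was 8. In shHSPA8 2 rose and 3 fell as well, where 14.7% of all genes were called, and 2 rose and 1 fell without shHSPA8 replicate 2. Among LIM homeobox genes, LHX8 (15.02 to 28.2 FPKM) was more abundant than LHX9 in every library. LHX8 fell 1.73-fold in shHSPA8 (log2 fold change -0.79, SE 0.11, adjusted p = 0.00328) and did not pass the test in shUCHL1 (-0.31, adjusted p = 0.0939). Of the other GATA genes, GATA1 and GATA3 had blank entries (not analysed here), and GATA2 lay between 0.02 and 0.20 FPKM. GATA5, named after its values were seen, reached 1.05 FPKM at most. It was called lower in shHSPA8 (log2 fold change -2.2, adjusted p = 0.0103), a call lost without shHSPA8 replicate 2. SOX12 (12.1 to 23.8 FPKM) and SOX4 (10.0 to 17.3), which belong to another SOX group than SOX9, were at levels like those of SOX9. SOX12 fell 1.76-fold in shUCHL1 (-0.82, SE 0.14, adjusted p = 0.0107) and SOX4 rose 1.51-fold (0.59, SE 0.10, adjusted p = 0.00812), and both calls were lost without either shUCHL1 library (adjusted p from 0.0587 to 0.108). EGR1, a zinc finger factor whose DNA-binding domain resembles that of WT1, rose 3.88-fold in shHSPA8, from 27.7 ± 1.14 to 108 ± 0.983 CPM (SD, n = 2; adjusted p = 5.11e-05). In shUCHL1 EGR1 was called lower (log2 fold change -0.35, adjusted p = 0.0496), a call lost in 5 of the 6 leave-outs.

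Markers of the somatic cell types in which these factors act were uneven. Of 25 Sertoli markers 15 carried values, and 10 of those stayed under 1 FPKM in every library, among them AMH, the tight junction gene CLDN11 (0.04 to 0.22 FPKM) and DHH (0.03 to 0.17). FSHR had a blank entry (not analysed here). The list's summed level, most of it the widely expressed filament gene VIM, ran from 3165 to 3531 FPKM in shCON, 2573 to 2619 in shUCHL1 and 2501 to 2727 in shHSPA8. KITLG (14.1 to 26.6 FPKM) and GDNF (2.94 to 4.16), growth factors that Sertoli cells supply to germ cells, were present. Of the 10 Sertoli markers tested, INHBB rose and VIM, SHBG and GDNF fell in shUCHL1, where 15.7% of all genes were called. Without shUCHL1 replicate 1 only INHBB was called, and in edgeR without replicate 2 the count was 0 (4 at an unadjusted p under 0.05), beside 2 with DESeq2 and 4 with limma on all libraries, while without shCON replicate 2 it was 2. In shHSPA8 VIM, SHBG and CTSV fell, where 14.7% of all genes were called, but in edgeR without any 1 library of either knockdown line the count was 0 (3 or 4 at an unadjusted p under 0.05), beside 2 with DESeq2 and 3 with limma. Of 19 Leydig and steroidogenesis markers 13 carried values, 7 exceeded 1 FPKM in every library and 5 were under it. The symbols CYP11A1 and CYP17A1 were not found and INSL3 and LHCGR had blank entries, so these defining genes were not analysed here. HSD17B3, the testosterone-forming enzyme, was at 0 in 5 libraries and at 0.18 FPKM in 1. The summed level of that list ran from 166 to 174 FPKM in shCON, 138 to 142 in shUCHL1 and 135 to 140 in shHSPA8.

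Mesenchymal and contractile markers were the abundant ones. Of 28 interstitial mesenchyme and fibroblast markers all carried values, 21 exceeded 1 FPKM in every library, and their median level was 30.6 FPKM, beside 6.56 for the 9 factors and 0.455 for Sertoli markers. COL1A1 lay between 1324 and 1792 FPKM, COL3A1 between 1072 and 2281, and the receptor PDGFRA, named after its values were seen, between 20.95 and 34.3. In shUCHL1 3 of 27 tested rose and 4 fell, with 2 and 2 without either shUCHL1 library and 4 and 7 without shCON replicate 1. In shHSPA8 11 rose and 4 fell, and some of these calls, such as those of COL6A1, FBN1 and OSR1, depended on single libraries. Of all genes tested, 15.7% were called in shUCHL1 and 14.7% in shHSPA8. The homeobox gene PRRX1 rose 3.03-fold in shHSPA8 (log2 fold change 1.60, SE 0.10, adjusted p = 1.40e-04), and FBLN1 fell (-1.45, SE 0.11, adjusted p = 2.63e-04). The summed level of the list ran from 8796 to 9258 FPKM in shCON, 9656 to 9940 in shUCHL1 and 10650 to 10780 in shHSPA8. Summed FPKM, here and for the other lists, carries no TMM scaling. The TMM factors were 1.04 in both shUCHL1 libraries, 0.979 and 0.995 in shCON, and 0.977 and 0.966 in shHSPA8. The gap between shUCHL1 and shCON is therefore not read as a rise. Of 20 peritubular myoid markers 19 were tested, and 12 fell and 2 rose in shUCHL1 (8 and 1 without shUCHL1 replicate 1). In shHSPA8 3 fell and 2 rose (5 and 3 without shCON replicate 1). The shares of all genes called in these comparisons were again 15.7% and 14.7%. The summed level of the myoid markers was 5802 to 6826 FPKM in shCON, 3162 to 3302 in shUCHL1 and 5511 to 6197 in shHSPA8. It thus did not follow the steps of GATA4 and SOX9. The part of these shifts in the changes of the 9 factors was not tested.

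The coelomic epithelium, where EMX2, LHX9, WT1 and GATA4 are first expressed, was read from 16 markers, of which 13 carried values and 6 were under 1 FPKM in every library, among them KRT19, KRT7, BNC1 and LRRN4. Of the 8 tested, 2 rose (CDH1 and UPK1B) and 3 fell (KRT8, KRT18 and ALDH1A2) in shUCHL1, where 15.7% of all genes were called. In shHSPA8 3 rose (HSPB1, BNC2 and MSLN) and the same 3 fell, where 14.7% of all genes were called, and the medians were 0.11 and 0.63. MSLN, a mesothelial surface protein gene that was named with BNC2 after its values were seen, had a log2 fold change of 1.21 in shHSPA8 (adjusted p = 0.0133; 0.0555 and 0.0742 without either shHSPA8 library). Without shHSPA8 replicate 2 none of these 3 rises was called, and without shHSPA8 replicate 1 or either shUCHL1 library 1 was. KRT8, a keratin of simple epithelia, stood at 19.8 ± 2.12 CPM in shCON, 1.30 ± 0.402 in shUCHL1 and 5.97 ± 0.402 in shHSPA8 (SD, n = 2). KRT8 fell 15.1-fold in shUCHL1 and 3.31-fold in shHSPA8 (log2 fold change -3.92, SE 0.21, and -1.73, SE 0.17), the order of line means seen for LHX9. ALDH1A2, the retinoic acid synthase of coelomic epithelium and mesenchyme, fell 1.66-fold in shUCHL1 and 2.42-fold in shHSPA8 (-0.73, SE 0.09, and -1.28, SE 0.09), the order of line means seen for GATA4 and SOX9. UPK1B rose 3.22-fold in shUCHL1 (adjusted p = 0.00163). The rise of CDH1 in shUCHL1 lost its call without shCON replicate 2 or either shUCHL1 library. The fall of KRT18 in shHSPA8 lost its call without shHSPA8 replicate 2. The summed level of the list, most of it the small heat shock gene HSPB1, was 352 to 441 FPKM in shCON, 388 to 411 in shUCHL1 and 523 to 594 in shHSPA8. Whether a change in epithelial cells goes with the falls of LHX9 and GATA4 was not tested.

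Most endothelial and leukocyte markers were low. The leukocyte marker PTPRC lay between 0 and 0.04 FPKM, and 7 of 11 leukocyte markers with values stayed under 1 FPKM. Of 13 endothelial markers with values 9 stayed under 1 FPKM, among them PECAM1 (0.08 to 0.22) and CDH5 (0.14 to 0.33). EMCN, 1 of 3 above that level in every library (5.73 to 43.5 FPKM), fell in both lines (-2.52, SE 0.13, and -2.81, SE 0.13). More of the endothelial markers called rose. Of the 8 tested, 2 rose (FLT1 and VWF) and 1 fell (EMCN) in shUCHL1, where 15.7% of all genes were called. In shHSPA8 4 rose (FLT1, ERG, KDR and EGFL7) and 1 fell (EMCN), where 14.7% were called. The medians over the 8 were 0.67 and 0.50. FLT1 (0.91 to 8.75 FPKM), a VEGF receptor gene, rose 8.58-fold in shUCHL1 and 3.03-fold in shHSPA8 (3.10, SE 0.12, and 1.60, SE 0.12) and kept both calls without any 1 library. The rises of VWF (adjusted p = 0.0477), KDR (0.0288) and EGFL7 (0.0312) were lost without at least 4 of the 6 libraries. The summed endothelial level, in shCON most of it EMCN, ran from 57.6 to 58.6 FPKM in shCON, 32.9 to 34.4 in shUCHL1 and 31.9 to 33.6 in shHSPA8. The summed leukocyte level, most of it the actin bundler LCP1, ran from 138 to 142, 55.1 to 60.6 and 85.5 to 88.2 FPKM.

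**Figure D4:**
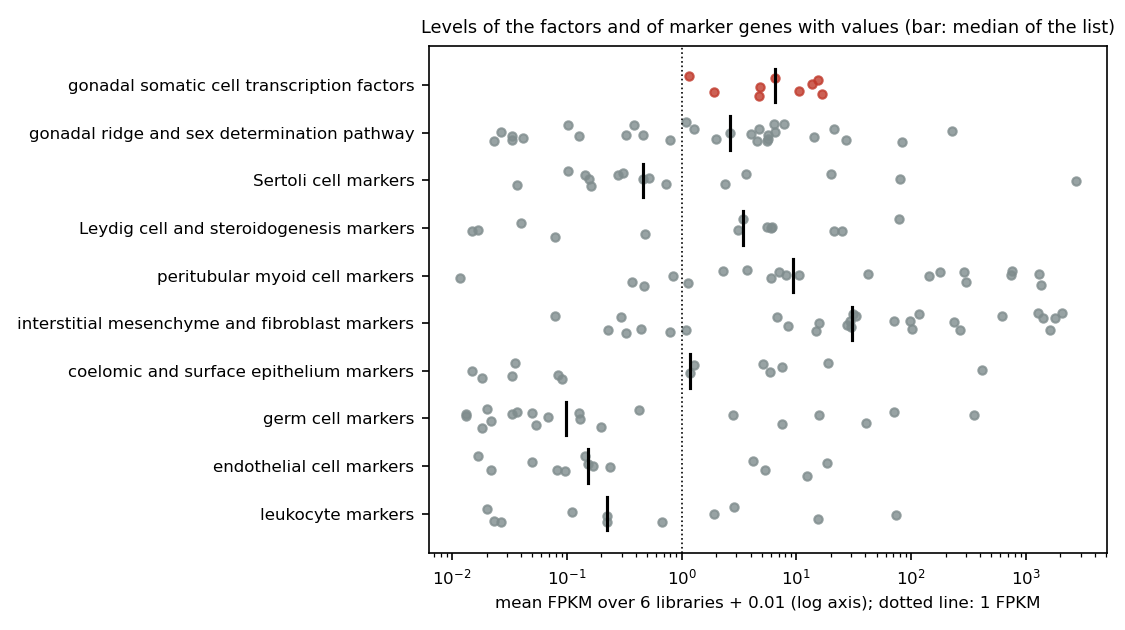
Mean FPKM over the 6 libraries plus 0.01 (horizontal log axis) of each gene with values in the 9 factors (red) and in lists of partner and marker genes (grey), with the median of each list as a bar and 1 FPKM as a dotted line. The factors all lie above 1 FPKM with a median of 6.56, the mesenchyme markers reach a median of 30.6, and the medians of Sertoli, germ cell, endothelial and leukocyte markers lie under 1.

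Genes whose pattern over the 6 libraries came closest to that of a changed factor were found by the root mean square difference of centred log2 CPM, among 11004 other genes with a symbol and at least 1 CPM on average. The nearest to LHX9 were ATL1, SLC8A1 and FLI1 (differences of 0.08, 0.10 and 0.12, beside a spread of LHX9 itself of 0.55 over the libraries). GATA4 was followed most closely by MAPK8IP1, LXN and CRLS1 (0.06, 0.07 and 0.07; spread of GATA4 0.38). For SOX9 they were TMEM123, HSD17B7 and CHST7 (0.08, 0.08 and 0.10; spread 0.54). WT1 was matched by EXOC6, TRMT6 and FAM188A (0.03, 0.07 and 0.07; spread 0.31), GATA6 by NCR3LG1, FZD8 and MKNK2 (0.05, 0.07 and 0.07; spread 0.34) and NR2F1 by SMIM7, SEMA7A and CNTNAP1 (0.05, 0.06 and 0.07; spread 0.29). With 6 libraries in 3 lines and so many genes, close matches of this kind are easily found. None of the 9 factors was among the 3 nearest genes of another.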

How the data were processed

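The data are messenger RNA libraries of 6 samples, 2 per line, made from 1.3 ug of total RNA, per the labels' protocols. Sample titles give the groups and replicate numbers. The submitters' processing notes name Trimmomatic 0.36. The sources used here give no aligner, counting tool, genome build or strand setting. The authors deposited 1 table of 33229 genes, 16630 of them blank. Per the file headers, the authors give an FPKM and a read count per library, a mean count per line, a log2 ratio per pair of lines and its p-value. From 1014 to 1117 genes per library have fractional counts, so the deposited read counts were treated as estimated counts of the authors, by a tool they do not name, and rounded. The RefSeq table of ARS1.2 holds all 16599 IDs that carry values, 16597 of them under the same symbol; it served for names and neighbours only. No protein or promoter sequence is shown.

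Counts were fitted for all genes with edgeR 4.0.16 (R 4.3.3; filterByExpr, TMM, glmQLFTest with group as the only term, all 6 libraries), with Benjamini-Hochberg adjustment per comparison over 12665 genes and a threshold of 0.05. SE is the log2 fold change divided by the square root of F, and intervals are at 95%. Log2 CPM used a prior count of 2. Alternatives were DESeq2 1.42.0, limma 3.58.1 (voom), scaling by library size, no filter, only the 2 lines compared, a replicate block and leaving out each library. On data simulated for shUCHL1 against shCON over 12243 genes, 29 of 67 genes changed 1.5-fold, 63 of 67 changed 2-fold, 66 of 66 changed 4-fold and 10 of 12043 unchanged genes were called. The simulation gave each gene the same spread in every line, unlike the uneven spread of the real lines, so these rates need not hold for the data. The 9 factors, the 11 other gene lists and the tests were chosen with earlier results of these data known. Besides the factors and the targeted genes, each list gave the 4 genes of highest mean FPKM and the 4 called genes of lowest p against shCON, plus defining markers that are blank or under 1 FPKM, and each called factor the 3 genes nearest in pattern; not all are described.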

Additional observations from a re-analysis of the deposited data

How the results depend on the processing

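With 2 libraries per line, most calls of single factors lay near the threshold. Of 324 values of the 9 factors under alternatives, 259 kept the side of the threshold, 56 lost a call and 9 gained one, and no called value changed sign; 22 uncalled values changed sign. Leaving out 1 library at a time, the factors called ranged from 1 to 3 in shUCHL1, from 2 to 6 in shHSPA8 and from 0 to 4 between the knockdown lines, and all genes called from 528 to 2615, from 920 to 2416 and from 257 to 3083. The lowest counts of genes came without a shUCHL1 library (528 and 530 in shUCHL1, 257 and 279 between the knockdown lines) or a shHSPA8 library (946 and 920 in shHSPA8, 585 and 784 between the knockdown lines), with 1108 in shHSPA8 without either shUCHL1 library, and the highest between the knockdown lines without either shCON library (3083 and 3082). Where a line keeps 1 library, its spread is taken from the other lines. With only the 2 lines compared, 1104 genes were called in shHSPA8 and 3116 between the knockdown lines. Scaling by library size alone called 2 factors in shUCHL1, LHX9 and GATA6, and no filter on low counts called 2 between the knockdown lines. The cause of these differences was not tested. Differences of replicate 1 from replicate 2 correlated at 0.23 (shCON and shUCHL1), -0.54 (shCON and shHSPA8) and -0.23 (shUCHL1 and shHSPA8) over 12665 genes. By these signs, shHSPA8 replicate 1 deviated more like replicate 2 of the other lines. Same numbers thus do not mark pairs across all 3 lines. Whether the libraries share a structure under another numbering was not tested, and the replicate block follows the numbers in the titles. With the replicate block 1230, 1131 and 923 genes were called, and 1 factor in shUCHL1 (LHX9) and 1 between the knockdown lines (SOX9). At this depth WT1, GATA6 and TCF21 rest on at most 114 counts per library.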
